A study of Mus musculus with 6 samples.

Results

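Immediate-early transcription factors were followed at the RNA level in mouse embryonic stem cells while translation was blocked. The genes were fixed by symbol: Jun, Junb and Jund, Fos, Fosl1 and Fosl2, Atf3, Egr1, Ier2 and Nr4a1. Of these 10 symbols, 9 were found among the 17484 mouse genes of the files, and Fosl1 was not analysed here. All cells were E14 embryonic stem cells of 129/Ola background, grown without a stated feeder layer on gelatin in medium with 15% serum and 1000 U/mL leukaemia inhibitory factor. At 24 h after seeding, the treated cells received 250 µg/mL cycloheximide, which blocks the elongation step of translation, in 0.007% ethanol for 3 h or 6 h. The control cells received ethanol without the drug for 9 h, so the control also differs from the treated cells in its duration. Each of the 3 groups had 2 bulk libraries of polyadenylated RNA, and the labels do not say whether these came from separate cultures, so the p-values measure the spread between these libraries, which may be technical.

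AP-1 is a family of dimers built from basic leucine zipper proteins: JUN proteins pair with each other or with FOS and ATF proteins, while FOS proteins need a JUN partner. Immediate-early genes are those that a stimulus such as serum can switch on without new protein synthesis, because the factors that act on their promoters (serum response factor, ternary complex factors, CREB) are already in the cell. Their transcripts are usually short-lived, and AU-rich elements in the 3′ untranslated region are a known signal for rapid decay. In embryonic stem cells, serum and autocrine FGF signal through the ERK pathway to these genes.

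By RefSeq, on GRCm38.p6, Jun is at chr4:95049036-95052222, Junb at chr8:84976909-84978748, Jund at chr8:70697739-70700616, Fos at chr12:85473890-85477274, Fosl2 at chr5:32136472-32157840, Atf3 at chr1:191170296-191183333, Ier2 at chr8:84661331-84662852 and Nr4a1 at chr15:101253902-101274795. In GENCODE M21, Jun, Junb, Jund and Ier2 have 1 exon, against 2.33% of the 11575 tested genes with a coding model. Egr1 has 2 exons, Fos, Fosl2 and Atf3 have 4 each, and Nr4a1 has 8.

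The promoters of 5 of these genes are shown because 4 of them belong to genes that rose at 3 h and 1, Nr4a1, to the gene that fell at 6 h. RefSeq promoter entries matched 7 of the 9 genes. Each line is the 250 bases before the transcription start, with matches to the motifs searched in capitals. For Nr4a1 the table's start is an internal one, used by the shorter transcripts and lying within the gene as placed above, and the start of the longer transcripts was not searched.
Fos, chr12:85473640-85473889, plus strand: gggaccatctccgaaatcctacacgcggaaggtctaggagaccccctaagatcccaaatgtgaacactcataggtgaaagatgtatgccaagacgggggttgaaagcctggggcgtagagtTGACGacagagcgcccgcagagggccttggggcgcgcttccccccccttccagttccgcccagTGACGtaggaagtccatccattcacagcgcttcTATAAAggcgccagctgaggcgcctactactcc
Jun, chr4:95052223-95052472, minus strand: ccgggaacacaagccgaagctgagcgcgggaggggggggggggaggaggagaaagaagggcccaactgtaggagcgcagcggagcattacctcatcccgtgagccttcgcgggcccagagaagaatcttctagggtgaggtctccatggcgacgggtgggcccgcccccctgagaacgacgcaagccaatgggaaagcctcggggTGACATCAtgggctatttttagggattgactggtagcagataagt
Junb, chr8:84978749-84978998, minus strand: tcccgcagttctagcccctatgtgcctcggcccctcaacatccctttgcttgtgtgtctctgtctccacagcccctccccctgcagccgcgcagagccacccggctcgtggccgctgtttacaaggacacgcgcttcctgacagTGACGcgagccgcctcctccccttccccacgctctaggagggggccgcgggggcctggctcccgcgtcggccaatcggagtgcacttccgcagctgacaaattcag
Atf3, chr1:191183334-191183583, minus strand: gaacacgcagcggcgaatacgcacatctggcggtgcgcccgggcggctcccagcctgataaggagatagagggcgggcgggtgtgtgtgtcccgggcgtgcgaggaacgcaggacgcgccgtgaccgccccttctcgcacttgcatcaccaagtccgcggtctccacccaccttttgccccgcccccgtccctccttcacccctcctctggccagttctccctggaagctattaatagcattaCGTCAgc
Nr4a1, chr15:101266596-101266845, plus strand: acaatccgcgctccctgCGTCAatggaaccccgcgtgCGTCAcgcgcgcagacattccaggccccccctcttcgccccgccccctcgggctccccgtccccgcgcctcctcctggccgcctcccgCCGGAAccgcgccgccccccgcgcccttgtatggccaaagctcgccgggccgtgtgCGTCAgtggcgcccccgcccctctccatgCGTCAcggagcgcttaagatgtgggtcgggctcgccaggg

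The motifs were searched on both strands. TATAAA, the TATA box, was found in Fos from 33 to 28 bases before the start, and 12.4% of 32851 RefSeq promoter windows of this length hold it. Jun held TGACNTCA, the form of an AP-1 or ATF site, from 45 to 38 bases before the start (7.49% of windows). TGACG, the core of a cAMP response element, had 2 matches in Fos, 1 in Junb, 1 in Atf3 and 4 in Nr4a1 (17.8% of windows hold at least 1, and any TGACGTCA would contain it). CCGGAA, an ETS core, was found in Nr4a1 (12.03% of windows). The CArG box bound by serum response factor (1.47% of windows), TGACGTCA (1.55%), TGANTCA (6.75%) and the EGR site GCGTGGGCG (0.536%) had no match in these 250 bases for the 7 genes, nor did Jund and Fosl2 match any motif. Bases further upstream were not searched for any gene, and no promoter entry was matched for Egr1 and Ier2. For Jund the RefSeq gene is longer than the 1668-base GENCODE transcript of 1 exon, so the start searched may not be that transcript's. TGACNTCA and TGACG were added to the search after the sequences were seen.

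The 3′ untranslated regions are shown for 3 genes because their short AU-rich pentamer, ATTTA, is the best known decay signal of this class of transcript. Each line is a window of 30 bases with the pentamers in capitals.
Fos: cgtttttattgtgttttcaATTTATTTAtt
Jun: gtgatcATTTAtaatcataggaaagATTTA
Nr4a1: gATTTAtatttgtgtattttcctggATTTA

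In the GENCODE 3′ untranslated regions, Fos had 4 ATTTA pentamers in 815 bases, and 9.78% of the 1780 tested genes with a region within 25% of that length had as many. Nr4a1 had 3 in 543 bases (9.91% of 1503 such genes had as many), Jun 4 in 1233 bases (21.1% of 2087) and Junb 2 in 485 bases (20.1% of 1437). The longer motif TTATTTATT was found in Fos and Fosl2, with 1 match each. Among tested genes with a region of similar length it was found in 4.94% for Fos and in 20.1% for Fosl2. Of the ATTTA pentamer, Atf3 had 3 in 1186 bases (32.8% of 2064), Fosl2 8 in 4653 bases (44.7% of 906), Jund 1 in 533 bases (52.8% of 1494) and Egr1 2 in 1216 bases (53.5% of 2082). Ier2 had 0 in 755 bases, so the pentamer was not shared by all genes that rose.

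Library totals ranged from 9385447 to 27351077 counts, with the 6 h libraries deepest, and the share of counts from the mitochondrial chromosome was 24.7% to 24.9% in control, 18.9% to 19.6% at 3 h and 16.6% to 17.4% at 6 h. With mitochondrial genes left out of the fit, 6, 5 and 6 of the 9 genes were called at 3 h, at 6 h and between them, as many as with them. Replicate libraries differed by more than counting noise in every group (chi-square per degree of freedom from 18.7 to 27.7). All 12 listed stem cell markers were measured, with a summed level of 7568 to 7868 CPM in control, 8475 to 8796 at 3 h and 6206 to 6271 at 6 h. Sox2 held 2282 and 2602 CPM of this sum in control and 3849 and 3958 CPM at 3 h. The median of the stem cell list was -0.09 at 3 h and -0.25 at 6 h on the log2 scale. CPM are counts relative to library size, scaled by the trimmed mean of M values (TMM). Of 10 fibroblast (feeder) markers 8 were in the files, of which 4 passed the filter, and the 8 summed to 9.34 to 11.4 CPM in control, 4.65 to 11.2 at 3 h and 4.56 to 8.22 at 6 h. The 8 primitive endoderm markers summed to 86.4 to 91.7, 88.9 to 92.9 and 43.3 to 48.3 CPM in the same order (Sox7 and Lama1, called lower at 6 h, make up most of the sum, while the list median was 1.19 at 3 h and 0.79 at 6 h on the log2 scale), trophectoderm markers to 11.98 to 14.6, 19.9 to 20.6 and 24.0 to 25.1 CPM, and mesoderm and ectoderm markers to 63.7 to 84.6, 98.0 to 122.8 and 71.4 to 85.9 CPM. Col1a2 and Dcn were at 0 counts in control and at 3 h, Lum at 3 h and 6 h, and Dppa3 and Krt7 in control. The part of such cells in the results was not tested, and in bulk RNA fewer cells of a type and less RNA per cell cannot be told apart.

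At 3 h of cycloheximide, 6 of the 9 genes were higher than in control: Egr1, Jun, Fos, Atf3, Ier2 and Junb, by 3.08-fold to 17.5-fold. A gene is called changed at a Benjamini-Hochberg adjusted p under 0.05 in edgeR's quasi-likelihood test over all 12755 tested genes, of which 3.21% were called higher and 4.56% in either direction at 3 h. At 6 h, Jun, Fos, Atf3 and Ier2 were called higher and Nr4a1 lower, among 30.2% of all genes called. Between 3 h and 6 h, Egr1, Fos, Junb, Nr4a1, Jun and Ier2 fell, while 3.2% of all genes were called and 1.92% were called lower. Jund and Fosl2 passed in none of the 3 comparisons. The 0 of 9 lower at 3 h (0 at an unadjusted p under 0.05, 0 by DESeq2 and 0 by limma-voom) stand beside 1.36% of all genes, and the 0 of 9 higher from 3 h to 6 h (also 0 by each of these) beside 1.28%. Libraries did not overlap between groups for 7 of the 9 genes at 3 h (53.2% of all genes), 5 at 6 h (66.8%) and 8 from 3 h to 6 h (54.1%). The 7 and the 8 include Fosl2, which passed the filter on low counts only with its 3 h libraries, where it is high. The comparisons share libraries, so they are not independent of each other.

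**Figure D1:**
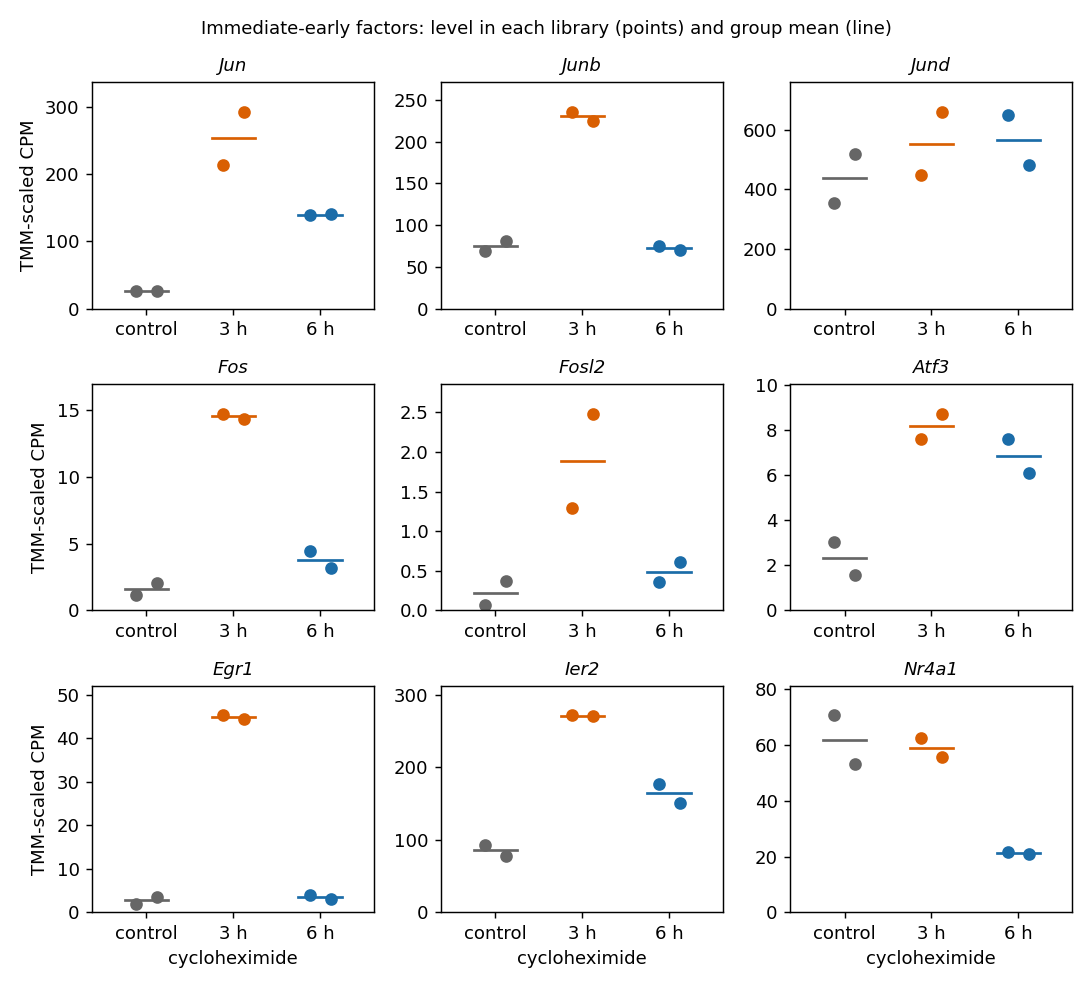
TMM-scaled CPM (y axis, from 0, scaled for each gene) in the 2 libraries (points) and the mean (line) of control, 3 h and 6 h cycloheximide, for the 9 genes. The 3 h libraries are highest for Jun, Junb, Fos, Fosl2, Atf3, Egr1 and Ier2. At 6 h Jun, Fos, Atf3 and Ier2 stay above control, Junb, Fosl2 and Egr1 overlap it, Jund libraries overlap in every group, and Nr4a1 is low at 6 h.

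Among the JUN genes, Jun, the founding AP-1 subunit and a strong activator, changed most. Its level was 25.9 CPM in both control libraries, 214 and 293 CPM at 3 h, and 139 and 141 CPM at 6 h. The groups did not overlap, and every treated library was above every control library. The rise at 3 h had a log2 fold change of 3.29 ± 0.17 (SE; adjusted p = 1.72e-05), and that at 6 h of 2.43 ± 0.17 (adjusted p = 3.77e-05). From 3 h to 6 h Jun fell by 0.86 ± 0.15 on the log2 scale (adjusted p = 0.0182), and 49.96% of the 3 h rise in CPM was left at 6 h. That decrease depended on the libraries: without 3 h replicate 2 it fell by 0.62 and missed the threshold (adjusted p = 0.158), as it did without 6 h replicate 1 (0.109) or 6 h replicate 2 (0.143).

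Junb, a JUN protein that activates more weakly and can oppose Jun, rose and returned. Its libraries held 69.3 and 80.6 CPM in control, 236 and 225 CPM at 3 h, and 75.1 and 69.9 CPM at 6 h. The 3 h libraries stood apart from all others, while control and 6 h overlapped. The log2 fold change was 1.62 ± 0.13 at 3 h (adjusted p = 0.000162) and -1.67 ± 0.12 from 3 h to 6 h (adjusted p = 0.000344). At 6 h against control it was -0.04 with a 95% interval from -0.32 to 0.24 (adjusted p = 0.827), which spans no change.

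Jund, the JUN gene that is usually expressed in resting cells, had no detectable change. It measured 354 and 518 CPM in control, 447 and 659 CPM at 3 h, and 648 and 481 CPM at 6 h. Libraries of every group overlapped, and the higher of the replicates exceeded the lower 1.46-fold in control, 1.48-fold at 3 h and 1.35-fold at 6 h. The log2 fold changes were 0.35 at 3 h (95% interval -0.16 to 0.86) and 0.37 at 6 h (-0.13 to 0.88), so a change of up to 1.81-fold or 1.85-fold is within the error. With library size alone as the scale, Jund was called higher at 6 h (log2 fold change 0.73, adjusted p = 0.0355), on a scale where the median of all tested genes is 0.40 against 0.04 here.

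The FOS genes were low in control. Fos, the classical serum-induced partner of Jun, had 16 and 17 counts in the control libraries, equal to 1.19 and 2.08 CPM. At 3 h it had 14.7 and 14.3 CPM, and at 6 h 4.42 and 3.18 CPM. All 3 groups were separate, with 3 h highest and control lowest. The rise at 3 h had a log2 fold change of 3.24 ± 0.36 (adjusted p = 0.00166), followed by a decrease of -1.92 ± 0.24 from 3 h to 6 h (adjusted p = 0.00575), leaving 16.8% of the 3 h rise in CPM. The decrease missed the threshold without 3 h replicate 1 (adjusted p = 0.0648), 3 h replicate 2 (0.0747) or 6 h replicate 2 (0.0809). The remaining difference from control at 6 h, a log2 fold change of 1.32 ± 0.42 (adjusted p = 0.0402), was lost in 11 of 19 alternatives (adjusted p over all 19 from 0.0123 to 0.305): limma-voom, the 0.01 threshold, the replicate block, thinned libraries, only the libraries compared, and each of the 6 fits that left out a library. Without control replicate 1 its log2 fold change was 0.88.

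Fosl2, which encodes the FOS relative FRA-2, was close to the limit of detection. The control libraries held 1 and 3 counts of it. At 3 h there were 20 and 43 counts and at 6 h there were 11 and 16. The 3 h libraries and 1 of the 6 h libraries were above the filter on low counts, and neither control library was. Fosl2 was thus tested only because of the 3 h libraries, where it is high, so its ratios are given as a description. The pooled counts gave a ratio of 10.4 for 3 h over control, with an exact 95% interval from 3.87 to 39.4 that covers counting error only, and of 2.60 (0.904 to 10.2) for 6 h. By edgeR the 3 h difference did not pass (adjusted p = 0.0625), and neither did that from 3 h to 6 h (log2 fold change -1.98, adjusted p = 0.0787).

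Atf3, a stress-responsive bZIP factor that pairs with JUN proteins and often represses, kept most of its rise. It measured 3.04 and 1.59 CPM in control (41 and 13 counts), 7.62 and 8.73 CPM at 3 h, and 7.59 and 6.09 CPM at 6 h. Treated and control libraries did not overlap, and the lower 3 h library was just above the higher 6 h library. The log2 fold change was 1.73 ± 0.36 at 3 h (adjusted p = 0.0312) and 1.47 ± 0.35 at 6 h (adjusted p = 0.0131). From 3 h to 6 h it was -0.25 (95% interval -0.82 to 0.31, adjusted p = 0.603), and 77.3% of the 3 h rise was left. The 3 h call was lost in 8 of 19 alternatives (adjusted p over all 19 from 0.00115 to 0.155), including limma-voom (adjusted p = 0.0583), only the libraries compared (0.0514) and leaving out control replicate 2 (0.0970), 3 h replicate 1 (0.105), 3 h replicate 2 (0.155), 6 h replicate 1 (0.0513) or 6 h replicate 2 (0.0503). The 6 h call was lost without control replicate 2 (0.0578) or 6 h replicate 1 (0.0630).

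**Figure D2:**
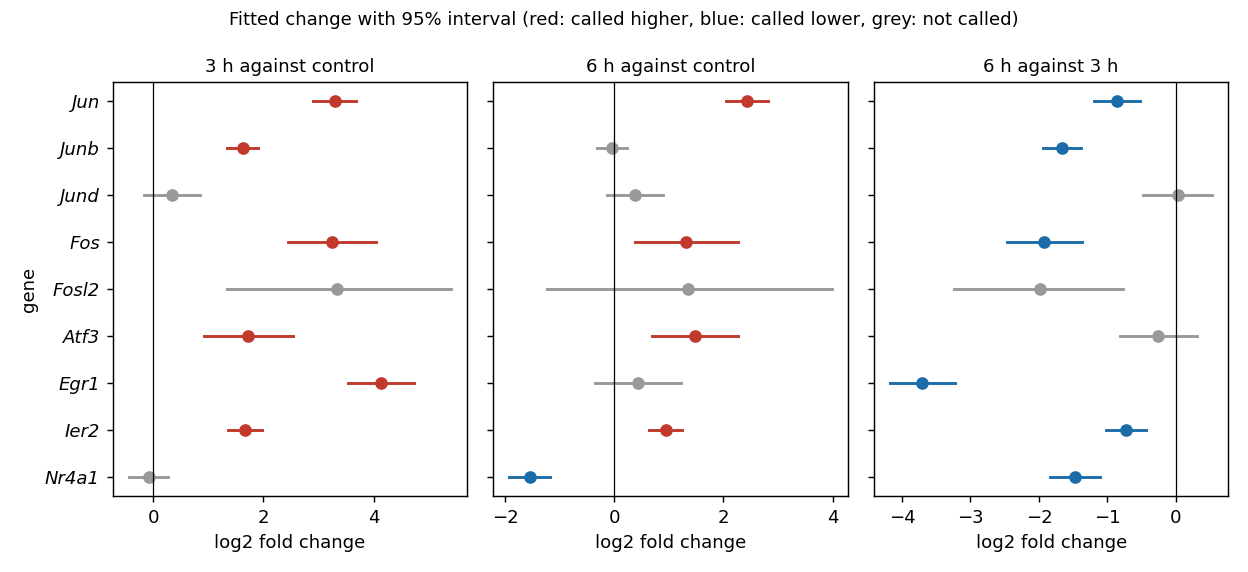
Fitted log2 fold change (x axis, points) with its 95% interval (lines) for each gene (y axis) in the 3 comparisons. Red and blue mark genes called higher and lower, grey those not called; the intervals are widest for Fosl2, which had 4 control counts in all.

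Egr1, a zinc finger factor induced by ERK signalling through serum response elements, had the highest fold change of the 9 genes at 3 h. Its control libraries held 27 and 28 counts, or 2.0 and 3.42 CPM. At 3 h the level was 45.3 and 44.5 CPM and at 6 h 3.89 and 2.95 CPM. The 3 h libraries were far above all others, and the 6 h and control libraries overlapped. The log2 fold change was 4.13 ± 0.27 at 3 h (adjusted p = 6.25e-05) and -3.70 ± 0.21 from 3 h to 6 h (adjusted p = 6.91e-05). At 6 h against control it was 0.43 (95% interval -0.35 to 1.21, adjusted p = 0.381), and 1.69% of the 3 h rise in CPM was left. Ranked by fold change among 12755 genes, Egr1 was number 97 at 3 h and number 12750 from 3 h to 6 h.

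Ier2, a small nuclear protein of the immediate-early class, rose without a full return. Its libraries measured 93.2 and 77.3 CPM in control, 272 and 270.4 CPM at 3 h, and 177 and 151 CPM at 6 h. The groups did not overlap, and the order was control, 6 h, 3 h from lowest to highest. The log2 fold changes were 1.66 ± 0.14 at 3 h (adjusted p = 0.000191), 0.94 ± 0.13 at 6 h (adjusted p = 0.00155) and -0.72 ± 0.13 from 3 h to 6 h (adjusted p = 0.0211). The last of these missed the threshold when either 3 h library or either 6 h library was left out (adjusted p from 0.0760 to 0.177). Of the 3 h rise in CPM, 42.4% was left at 6 h.

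Nr4a1, the orphan nuclear receptor NUR77, had no detectable change at 3 h and was the only gene of the 9 called lower than control at 6 h. It measured 70.6 and 53.3 CPM in control, 62.5 and 55.5 CPM at 3 h, and 21.5 and 21.0 CPM at 6 h. Control and 3 h overlapped, and both 6 h libraries were below all others. At 3 h the log2 fold change was -0.08 with a 95% interval from -0.44 to 0.28 (adjusted p = 0.797). At 6 h it was -1.55 ± 0.17 (adjusted p = 0.000360), and from 3 h to 6 h -1.47 ± 0.16 (adjusted p = 0.00320); the latter missed the threshold without 6 h replicate 2 (adjusted p = 0.0620).

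**Figure D3:**
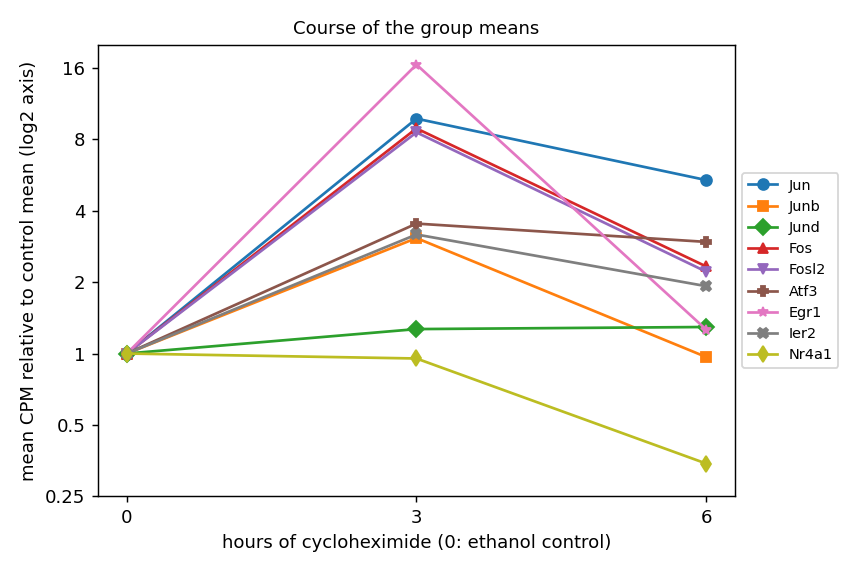
Group mean CPM relative to the control mean (y axis, log2 scale) at 0, 3 and 6 h of cycloheximide (x axis), where 0 h is the ethanol control; each line is 1 gene and no error is drawn. Jun, Junb, Fos, Fosl2, Atf3, Egr1 and Ier2 are highest at 3 h, Junb and Nr4a1 end below 1, and the others end above 1.

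The course after 3 h thus differed in size among the genes that rose. The share of the 3 h level present at 6 h was 7.63% for Egr1, 26.2% for Fos, 31.5% for Junb, 55.1% for Jun, 60.5% for Ier2 and 83.7% for Atf3. These shares are ratios of means of 2 libraries, and differences between genes were not tested. RNA synthesis and decay were not measured.

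Reads of overlapping genes could enter some of these values, since strandedness is not given in the sources used here. GENCODE M21 places the antisense genes Junos over exons of Jun and Gm11175 over exons of Jund; they were not analysed here. Whether reads cover the whole transcript or its end is not given either, so levels were compared between groups and not between genes.

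By the distance between log2 CPM profiles over the 6 libraries, the genes nearest to each called gene were sought among 8533 tested genes. These had a mean of at least 5 CPM, and symbols made of Gm and a number or ending in Rik were left out. The nearest to Egr1 was Fos (distance 1.73), then Junb (2.43) and Socs3 (2.56). Junb was nearest to F8a (0.636), Socs3 (0.731) and Dusp1 (0.871). Socs3, a feedback inhibitor of cytokine signalling, had means of 93.6 CPM in control, 242 at 3 h and 55.8 at 6 h, and thus shared with Junb the peak at 3 h. The nearest to Atf3 were Clk4 (0.317), AI467606 (0.412) and Trmt44 (0.423), and to Ier2 Arl4d (0.445), Trmt44 (0.473) and Zfp367 (0.498). Jun was nearest to Id3, Dusp8 and Lpar6, at distances from 1.03 to 1.08, and Fos to F8a, Arl4d and Junb, at 1.35 to 1.39. Means at 3 h and 6 h were 181 and 184 CPM for Id3, 10.1 and 9.46 for Dusp8, and 69.9 and 76.2 for Lpar6. The mean of Jun went from 253 to 140 CPM, a decrease of a size that none of them had. Nr4a1 was nearest to Fignl2 (0.171), Xbp1 (0.341) and Trib3 (0.426). Xbp1, a factor of the unfolded protein response, had means of 31.5, 28.6 and 10.7 CPM in control, 3 h and 6 h.

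Related genes were read from lists, by their counts beside all genes. Of 16 other AP-1 and related bZIP factors, 11 were tested. At 3 h 1 rose (Mafk, a small MAF protein, log2 fold change 1.49 ± 0.34, adjusted p = 0.0414), 0 fell and the list median was -0.05, against 0.02 for all genes. At 6 h Jdp2, Atf2 and Mafg fell. Jdp2, a repressor that pairs with JUN proteins, had a log2 fold change of -1.07 ± 0.18 (adjusted p = 0.00302), and Atf2, a JUN partner activated by stress kinases, of -0.97 ± 0.11 (adjusted p = 0.000597). Mafg had one of -0.75 (adjusted p = 0.00952), a call lost with library size alone (0.0929), without control replicate 1 (0.0712) and without either 6 h library (0.0530 and 0.0548). Fosb had from 0 to 12 counts per library and passed no test. Beside the 0 that fell at 3 h, edgeR gave 1 lower gene at an unadjusted p under 0.05, DESeq2 called 1 and limma-voom 0; the Mafk call was lost in 9 alternatives, among them limma-voom (adjusted p = 0.0538) and the replicate block (0.0612).

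Of 10 EGR, NR4A and IER relatives with the EGR co-repressors, 8 were in the files and tested. At 3 h 1, Egr2, was called higher and 0 lower, 12.5% of the list against 4.56% of all genes. That share rests on Egr2 alone and is a description only, for the reason given below. At that time edgeR gave 1 lower gene at an unadjusted p under 0.05, DESeq2 called 0 in either direction and limma-voom 1 higher. At 6 h 0 were called higher and 2 lower, 25% of the list against 30.2% of all genes. Egr2, the relative of Egr1 best known from hindbrain and myelin, was at 0 counts in both control libraries, at 37 and 41 counts at 3 h, and at 8 and 0 counts at 6 h. Against a floor of 3 counts over the control group, it was at least 17.2-fold higher at 3 h (adjusted p = 0.0412), and it was called lower at 6 h than at 3 h (adjusted p = 0.0308). It passed the filter on low counts through the 3 h libraries alone, where it is high, so these calls are given as a description. The 3 h call was lost with edgeR's legacy method (adjusted p = 0.0563), with the replicate block (0.0620) and without any 1 of the control or 3 h libraries (0.0954 to 0.154), and DESeq2 gave it no adjusted p. At 6 h Nab2, a co-repressor of EGR factors, fell by 1.01 on the log2 scale (adjusted p = 0.00368) and Ier3 by 2.75 (adjusted p = 0.00430); the Ier3 call was lost without control replicate 1 (0.0851).

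Of 34 other immediate-early and delayed-early response genes, 31 were tested. At 3 h 13 rose (41.9% of them, against 3.21% of all genes) and 0 fell (edgeR unadjusted p under 0.05 in 1 lower gene, 0 lower by DESeq2 and 0 by limma-voom), with a list median of 0.73 against 0.02 for all genes. The largest rises at 3 h were those of Ctgf and Cyr61, secreted matricellular proteins, and Klf6, a Krüppel-like factor. Ctgf rose by a log2 fold change of 2.24 ± 0.17 (adjusted p = 0.000147), Cyr61 by 1.89 ± 0.22 (adjusted p = 0.00221) and Klf6 by 1.82 ± 0.13 (adjusted p = 0.000117). At 6 h 11 were higher and 6 lower, together 54.8% against 30.2% of all genes, with a median of 0.15 against 0.04 for all genes. Klf10, a TGF-beta-inducible Krüppel-like factor, was highest by fold change at 6 h (2.63 ± 0.11, adjusted p = 2.60e-06), followed by Klf6 (2.11) and Ctgf (1.88). Spry4, an inhibitor of receptor tyrosine kinase signalling, fell by 1.96 (adjusted p = 3.78e-05), Myc by 1.40 (adjusted p = 0.00162) and Zfp36, which binds AU-rich elements and promotes decay, by 1.38 (adjusted p = 0.0188). The Zfp36 call was lost with library size alone (adjusted p = 0.0513), without control replicate 2 (0.0991) and without 6 h replicate 2 (0.0783). From 3 h to 6 h, 10 of the 31 fell and 1, Klf10, rose, where 1.92% of all genes were called lower and 1.28% higher.

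**Figure D4:**
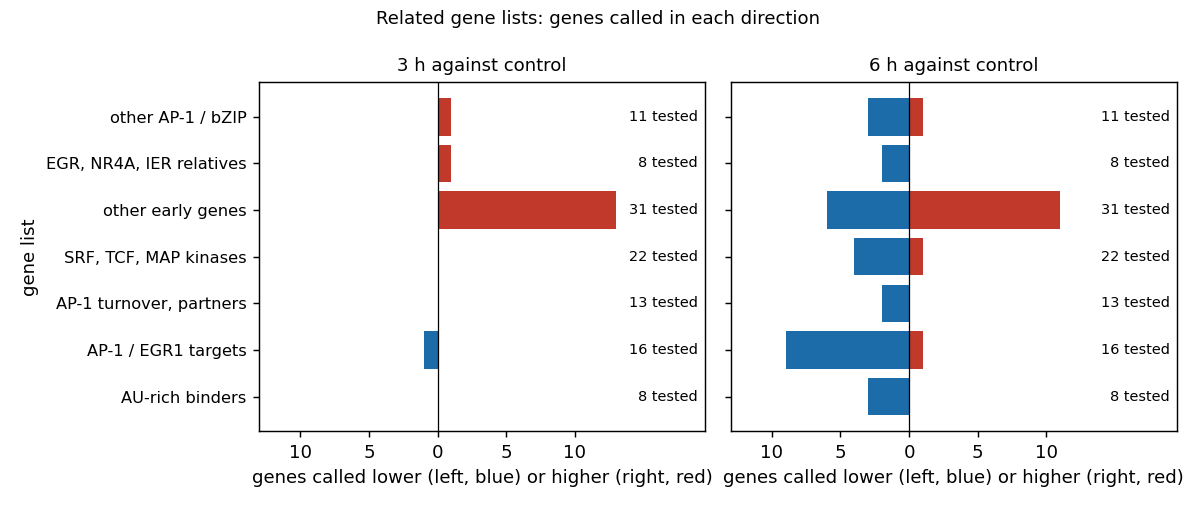
Number of genes called lower (left, blue) and higher (right, red) at 3 h and 6 h against control in each related list (y axis), with the number tested printed at the right. Other early genes rose in 13 of 31 cases at 3 h, where 3.21% of all genes rose, and AP-1 and EGR1 targets fell in 9 of 16 at 6 h, where 14.9% of all genes fell.

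Of 22 tested serum response factor, ternary complex factor and MAP kinase genes, 0 were called at 3 h, where 4.56% of all genes were. At that time edgeR gave an unadjusted p under 0.05 in 1 higher and 4 lower genes, and DESeq2 and limma-voom each called 0. With library size alone 1 was called higher. At 6 h 1 was higher and 4 were lower, together 22.7% of the list against 30.2% of all genes, and with library size alone 6 were higher and 0 lower. Mkl1, a coactivator of serum response factor, had a log2 fold change of 0.78 (adjusted p = 0.0128), Srf itself of -0.77 (adjusted p = 0.0180), Mapk3 of -0.71 (adjusted p = 0.00959) and Map2k1 of -0.65 (adjusted p = 0.0153). The Srf call was lost with library size alone (adjusted p = 0.136), without control replicate 2 (0.0875) and without 6 h replicate 2 (0.114), and the Mkl1 call without 6 h replicate 1 (0.0624). The Mapk3 call was lost with library size alone (0.102) and without 6 h replicate 2 (0.0736). The Map2k1 call was lost with library size alone (0.192) and without control replicate 2 (0.0791), 6 h replicate 1 (0.0695) or 6 h replicate 2 (0.0761). Among 13 tested genes for AP-1 protein turnover and binding partners, 0 were called at 3 h, beside the 4.56% of all genes. There edgeR gave an unadjusted p under 0.05 in 1 higher and 2 lower genes, DESeq2 called 1 lower and limma-voom 0. With library size alone 1 was called higher. At 6 h Cand1 and Ddb1, components of cullin ubiquitin ligase machinery, fell by 0.41 each (adjusted p = 0.0282 and 0.0395). These are 15.4% of the list against 30.2% of all genes called, and with library size alone 4 genes were called higher and 0 lower. Calls for Cand1 and Ddb1 were lost in 7 and 10 alternatives, with adjusted p-values up to 0.745 and 0.768.

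Of 16 tested textbook AP-1 and EGR1 target genes, 0 were called higher at 3 h, where 3.21% of all genes were (0 at an unadjusted p under 0.05, 0 by DESeq2 and 0 by limma-voom; with library size alone 1 was called higher) and 1 was lower, with a list median of -0.21. That gene was Vim, an intermediate filament protein, with a log2 fold change of -0.85 ± 0.12 (adjusted p = 0.00681); the call was lost without 3 h replicate 1 (0.0776) or 3 h replicate 2 (0.0586). At 6 h 9 were lower and 1 higher, against 14.9% and 15.4% of all genes, with a median of -0.51 against 0.04 for all genes. Plaur, the urokinase receptor, measured 37.3 and 41.5 CPM in control, 27.2 and 18.95 CPM at 3 h, and 6.44 and 6.32 CPM at 6 h, a log2 fold change of -2.62 ± 0.21 at 6 h (adjusted p = 8.06e-05). Vim had one of -1.29 (adjusted p = 0.000219), and Mmp9, a matrix metalloproteinase, was higher (1.57, adjusted p = 0.0255), a call lost in 8 alternatives, among them DESeq2 (adjusted p = 0.0514). With library size alone 4 were lower and 3 higher at 6 h. Translation was blocked in these cells, and protein levels of the factors were not measured.

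Genes for proteins that bind AU-rich elements were the last list. Of 8 tested, 0 were called at 3 h, where 4.56% of all genes were. There edgeR gave an unadjusted p under 0.05 in 1 higher and 2 lower genes. DESeq2 called 1 in each direction, limma-voom 0, and library size alone gave 1 higher. At 6 h 3 were lower: Zfp36, Zfp36l2 (log2 fold change -1.21, adjusted p = 0.00141) and Zfp36l1 (-0.44, adjusted p = 0.0176), all of the family that recruits decay enzymes. They are 37.5% of the list against 30.2% of all genes called, DESeq2 and limma-voom each also called 1 gene higher, and with library size alone 1 was lower. The Zfp36l1 call was lost with library size alone (adjusted p = 0.609), without control replicate 1 (0.0713), 6 h replicate 1 (0.0553) or 6 h replicate 2 (0.107).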

How the data were processed

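RNA counts of 6 libraries were analysed, 2 each from control, 3 h and 6 h cells; the title calls them bulk and the design text single-cell, and each file holds 1 library. Each deposited file holds raw gene counts of 1 library as whole numbers, named by gene symbol and chromosome per the file headers. The genome build was mm10, per the submitters' processing notes; aligner, counting program, annotation, strandedness and collapsing of molecular identifiers are not given in the sources used here. One row without a chromosome (eGFP, at most 2 counts per library) was left out. Genes were kept by edgeR's filterByExpr (10 counts in the median library, at least 15 in total), which left 12755, and 9 of the 9 genes described. Libraries were scaled by TMM and fitted with edgeR 4.0.16 (quasi-likelihood, 1 mean per group over all 6 libraries, 3 residual degrees of freedom, no replicate block, two-sided). SE was taken as the fitted change over the square root of F. Alternatives used DESeq2 1.42.0 and limma 3.58.1. On simulated counts the fit returned the true fold changes, with more false calls than the threshold allows in name. The floor was 3 counts, or 0.0990 to 0.367 CPM; floors and counting intervals cover counting error only. The genes and lists were chosen with earlier results of these data known. Named list genes are up to 3 called genes per direction, list and comparison with control with the largest fold change.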

Additional observations from a re-analysis of the deposited data

Results flagged for a closer look

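For 6 genes the change from control at 3 h was unlike that at 6 h by the direct test of 6 h against 3 h (edgeR, adjusted p under 0.05). The log2 fold change was -3.70 for Egr1, -1.92 for Fos, -1.67 for Junb, -1.47 for Nr4a1, -0.86 for Jun and -0.72 for Ier2. For Egr1, Fos, Junb, Jun and Ier2 it followed a called rise, and for Nr4a1 it followed no detectable change at 3 h. In each of the 6 genes both 6 h libraries were below both 3 h libraries. The genes were picked by this same comparison, in which 54.1% of all genes did not overlap, so the separation adds no support. The adjusted p-values stayed under 0.05 in all 19 alternatives for Egr1 and Junb, and the libraries on which the other 4 depend are given above.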

How the results depend on the processing

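The count of all genes called at 3 h was 582, and it moved to 1256 with library size alone, 1447 with DESeq2, 130 at an adjusted p under 0.01 and 332 with only the libraries compared. At 6 h it was 3855, against 1779 at 0.01. For 6 h against 3 h it was 408, against 209 with edgeR's legacy method, 688 with DESeq2, 76 at 0.01, 246 with the replicate block and 640 with only the libraries compared. Leaving out 1 library gave 102 to 489, 1994 to 3357 and 21 to 642 genes in the same order, and 5 to 6, 3 to 4 and 2 to 6 of the 9 genes, against 6, 5 and 6; the lone library of a group is then assumed to vary like the others. At 0.01, 3 of the 9 were called at 6 h. With library size alone 95.5% of the 3 h calls were higher, against 70.3%. Signs turned where no call was made: Nr4a1 at 3 h was 0.14 with library size alone, and ranged from -0.26 to 0.14 over fits that left out a library. Junb at 6 h was 0.31 with library size alone, 0.021 with thinned libraries, and ranged from -0.16 to 0.069 over fits that left out a library. Jund from 3 h to 6 h ranged from -0.22 to 0.34 over such fits. Fosl2 passed at 3 h with library size alone (log2 fold change 3.55). Thinning to the smallest library was chosen after seeing the data. The labels do not say that equal replicate numbers mark a pair, and deviations of same-numbered libraries correlated at 0.118, -0.0256 and 0.0192; of the 9 genes' calls, the replicate block ended only that of Fos at 6 h. In sparse genes (Fos, Fosl2, Atf3, Egr1 in control) counts limit the precision.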

Other observations

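Some of the other early genes, chosen here after their values were seen, are given as values. Dusp6, an ERK phosphatase, had means of 88.7 CPM in control, 149 at 3 h and 75.1 at 6 h, with log2 fold changes of 0.75 at 3 h (edgeR adjusted p = 0.0154) and -0.99 from 3 h to 6 h (adjusted p = 0.00575). Dusp1, a phosphatase of stress kinases, went from 17.0 to 35.2 and 19.8 CPM (1.07 at 3 h, adjusted p = 0.0109; -0.83 from 3 h to 6 h, adjusted p = 0.0234). Of their relatives, Dusp2 was called at neither time (-0.0079 at 3 h, 0.043 at 6 h), and Dusp4 was called higher at 6 h (1.07, adjusted p = 0.0413) and not at 3 h (0.94, adjusted p = 0.163). Spry2, a relative of Spry4, rose by 0.54 at 3 h (adjusted p = 0.0483) and was below control at 6 h by a log2 fold change of -1.06 (adjusted p = 0.000742). Sgk1, a serum- and glucocorticoid-regulated kinase, rose by 0.77 (adjusted p = 0.00687) and fell by 1.01 from 3 h to 6 h (adjusted p = 0.00287). Rhob, a small GTPase, and Nfkbia, the NF-kB inhibitor, were higher at both times, with log2 fold changes of 1.36 and 1.49 for Rhob (adjusted p = 0.00587 and 0.000722) and 1.18 and 1.09 for Nfkbia (adjusted p = 0.00687 and 0.00220).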
